A study of Mus musculus with 71 samples.

Results

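Of the 18193 genes with a named probe set on the array, 10 genes of meiosis and the germ line were followed through every group of the series: Sycp3, Syce2, Dazl, Sycp1, Stag3, Smc1b, Rec8, Mael, Ddx4 and Tex11. Members were found by the gene symbol in the platform annotation, and all 10 of 10 were on the array. Dazl had 2 probe sets and each other member had 1; for Dazl the probe set with the higher mean over the 71 arrays, 1419542_at, represented the gene. Values are log2 of an intensity relative to the median of its array, so that 0 is the median probe set of an array, 1 is a doubling of it and a negative value is dim.

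The series asks what happens to transcripts in adult mouse brain when either of 2 paired enzymes, GLP, encoded by Ehmt1, or G9a, encoded by Ehmt2, both euchromatic histone H3 methyltransferases, is removed from neurons. Tissue mutants were Camk2a-Cre; GLPfl/fl or Camk2a-Cre; G9afl/fl mice, in which the Camk2a promoter drives Cre in postnatal forebrain neurons, so glia and many other cells of the tissue keep the gene. Their controls were age- and sex-matched littermates, GLPfl/fl or G9afl/fl, so the floxed allele was shared by mutants and controls. Hippocampus, hypothalamus, striatum and cortex gave 59 arrays in 16 groups of 4, except for 3 G9a hippocampus controls and 2 arrays in each G9a cortex group. A further 12 arrays, in 4 groups of 3, held polyribosomal RNA of medium spiny neurons (MSN), the projection neurons of the striatum. These were immunoprecipitated from pools of 5 mice: Drd1-Cre; Drd1-bacTRAP; G9afl/fl against Drd1-bacTRAP; G9afl/fl, and Drd2-Cre; Drd2-bacTRAP; G9afl/fl against Drd2-bacTRAP; G9afl/fl. Here both sides carried the floxed G9a allele and the bacTRAP transgene, which tags ribosomes in cells that express the named dopamine receptor. All mice were 10 to 14 weeks old per the series design. In such bulk samples fewer cells with a transcript and less transcript per cell cannot be told apart.

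Meiosis pairs homologous chromosomes along a protein scaffold, the synaptonemal complex, while cohesin rings of meiotic subunits hold sister chromatids together. Sycp3 builds the lateral elements of this scaffold, Sycp1 spans between them, and Syce2 belongs to its central element. Stag3, Smc1b and Rec8 are meiotic cohesin subunits. Dazl and Ddx4 (mouse Vasa) are RNA-binding proteins of germ cells, Mael acts in the piRNA defence against transposons, and the X-linked Tex11 takes part in meiotic crossover formation. Many genes of this kind have CpG-rich promoters that are held silent in the body's other tissues by DNA methylation, by E2F6-containing Polycomb complexes and by H3K9 methyltransferases including GLP and G9a. Adult brain has no meiotic cells, and silence is the textbook state of these genes there.

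The promoters are shown for the 3 members that changed, Dazl, Syce2 and Sycp3, and for one that stayed dim on every array, Sycp1. Each is the 250 bases before the RefSeq transcription start, for Syce2 the first of 2 starts, 5′ to 3′ on the gene's strand, on build GRCm38.p6. Capitals mark 2 letter patterns found on either strand: CACGTG, the E-box bound by the MGA and MAX partners of that Polycomb complex, and TCCCGC, the core of E2F sites, which reads GCGGGA from the opposite strand. The positions are chr17:50293621-50293870 on the minus strand for Dazl and chr8:84871861-84872110 on the plus strand for Syce2. They are chr10:88459337-88459586 on the plus strand for Sycp3 and chr3:102936101-102936350 on the minus strand for Sycp1.
Dazl: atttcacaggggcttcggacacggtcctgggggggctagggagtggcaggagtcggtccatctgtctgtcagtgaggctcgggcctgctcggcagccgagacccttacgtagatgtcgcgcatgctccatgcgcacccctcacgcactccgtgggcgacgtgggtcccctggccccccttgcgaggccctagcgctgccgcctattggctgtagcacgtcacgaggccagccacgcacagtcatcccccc
Syce2: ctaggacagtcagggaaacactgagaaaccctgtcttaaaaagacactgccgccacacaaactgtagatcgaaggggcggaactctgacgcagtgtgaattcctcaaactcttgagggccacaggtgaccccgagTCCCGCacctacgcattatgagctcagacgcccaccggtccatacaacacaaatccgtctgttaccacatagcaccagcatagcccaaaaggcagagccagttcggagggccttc
Sycp3: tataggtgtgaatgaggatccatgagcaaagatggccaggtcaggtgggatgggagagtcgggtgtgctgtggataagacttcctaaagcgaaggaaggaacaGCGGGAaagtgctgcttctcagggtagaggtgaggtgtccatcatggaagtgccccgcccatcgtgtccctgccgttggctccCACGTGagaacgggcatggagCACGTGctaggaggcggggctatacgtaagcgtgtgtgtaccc
Sycp1: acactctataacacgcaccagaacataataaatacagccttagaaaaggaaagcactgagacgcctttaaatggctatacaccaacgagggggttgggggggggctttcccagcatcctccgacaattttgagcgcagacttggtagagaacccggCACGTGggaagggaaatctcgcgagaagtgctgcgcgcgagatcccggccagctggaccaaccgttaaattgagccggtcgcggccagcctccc
Dazl held neither pattern in this stretch, Syce2 held 1 E2F core, Sycp3 held 2 E-boxes and 1 E2F core, and the dim Sycp1 held 1 E-box. The window of the other Syce2 start, not printed, held 1 E-box and 2 E2F cores. Sycp1 also held 1 E2F core just after its start, outside the printed stretch. RefSeq gave windows of 300 bases, 250 before and 50 after the start, for 9 of the 10 members, 10 windows in all because Syce2 has 2 starts. In them the E-box was found for 6 members and the E2F core for 8, and 6 members had both. Among all 32851 windows of that length, 7.2% held the E-box, 20% the E2F core and 1.99% both. The member windows were rich in CpG, with 15 to 38 against a median of 7, and among the 11378 windows with at least 15 the shares were 11.3%, 45.4% and 5%. A match is a run of letters and no evidence of binding.

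Checks of the labels touched the members in a few places. Ehmt1 fell to between 58.9% and 72.6% of control in the GLP hippocampus, striatum and cortex, but stood at 89.8% in the GLP hypothalamus, where it did not pass (adjusted p = 0.711). Ehmt2 fell to between 29.5% and 49.2% in the 4 G9a regions. It stood at 24.3% in the Drd1 pools labelled as mutants, which did not pass (adjusted p = 0.943), and at 94.5% in the Drd2 pools labelled as mutants, so directions in those pools rest on the labels. Regional markers were highest in their own region, for example striatal markers at 6.71 to 7.23 in striatum and at most 4.76 in other tissue. Arrays that stood apart were Drd1 mutant 2, with the lowest correlation to the rest of its group, 0.9012, and, among tissue arrays, G9a hypothalamus mutant 2, at 0.9673. Of the pools, Drd2 control 1 (0.9609) and Drd1 mutant 3 (0.9656) also lay below the latter value. Xist exceeded the Y-linked genes on 3 of 3 Drd1 controls and 0 of 3 Drd1 mutants, and on 1 of 3 Drd2 pools on each side. Xist was dim in the Drd1 pools, at 0.67, -0.08 and -0.24 in controls and -1.14, -1.3 and -0.34 in mutants. The Y-linked means stood at -1.75, -1.66 and -0.87 in controls and at 1.28, -0.34 and 1.51 in mutants. The compared Drd1 pools may thus differ in sex as well as in genotype, which these values do not settle. In tissue Xist exceeded the Y-linked genes on all GLP arrays and on 0 of 2 mutants and 0 of 2 controls of the G9a cortex. It did so on 2 of 4 mutants and 1 of 3 controls of the G9a hippocampus, and on 2 of 4 arrays in each remaining G9a group. Sex therefore differed between the GLP and G9a lines, and its part in any difference between them cannot be told apart from that of the line. Spermatid markers, 12 genes such as Prm1 and Tnp1 that mark developing sperm, had array means from -2.46 to -0.38 and none was called in any mutant comparison.

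Where members changed, they fell. To be tested, a gene had to exceed the array median on a number of the compared arrays no smaller than the size of the smaller group, and it was called at an adjusted p of at most 0.05 (limma, Benjamini-Hochberg over all genes tested). There were 11 calls among the 10 comparisons of mutants with controls, all lower in mutants: 5 of Syce2, 4 of Dazl and 2 of Sycp3. No member was called higher, and none was higher at an unadjusted p under 0.05 either. The share of all tested genes called lower is the background for these counts. Because the members were chosen with earlier results of these data known, setting the counts beside it is a description and not a test. In the GLP hippocampus 1 member of 4 tested fell, against 0.317% of all genes. For the GLP hypothalamus it was 2 of 2, against 0.191%, and for the GLP striatum 3 of 3, against 0.52%. The GLP cortex had 1 of 3, against 0.233%. For G9a it was 2 of 3 in the hippocampus, against 0.469%, 1 of 2 in the hypothalamus, against 0.75%, and 1 of 1 in the striatum, against 1.15%. In the G9a cortex 0 of 3 passed, against 0.103%, with 1 member lower at an unadjusted p under 0.05. In the Drd1 and Drd2 pools 0 of 4 passed, where 0% of genes were called lower and 0.0249% and 0.0165% higher; no member there had an unadjusted p under 0.05. The share of all genes called higher was 1.73%, 0.824%, 1.15% and 1.31% in the GLP hippocampus, hypothalamus, striatum and cortex and 2.25%, 1.59%, 1.87% and 0.625% in the same G9a regions. In the Drd1 and Drd2 pools all called genes were higher.

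The members tested were those bright enough to test, so these counts describe 5 of the 10 genes and not the list. Sycp3 in the GLP striatum was bright enough only in its controls. So was Syce2 there, with 2 of 4 mutants above the median, and Dazl in the G9a hippocampus, with 1 of 4. These calls were tested only because the controls were brighter. Over all 10 members, untested ones included, the median log2 difference ran from -0.225 in the G9a hippocampus to 0.137 in the Drd1 pools. The medians of all tested genes had a narrower range, from -0.0866 to 0.0442. They were 0.0304 in the G9a hippocampus and -0.0866 in the Drd1 pools. Syce2 and Dazl were among 16 genes of 13233 tested that were lower in at least 4 comparisons, and Syce2 among 9 that were lower in at least 5. The labels do not say if regions of a line share mice. Replicates are called biological in the labels, and their number, 2 to 4 arrays a group, limits the precision of every value.

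**Figure D1:**
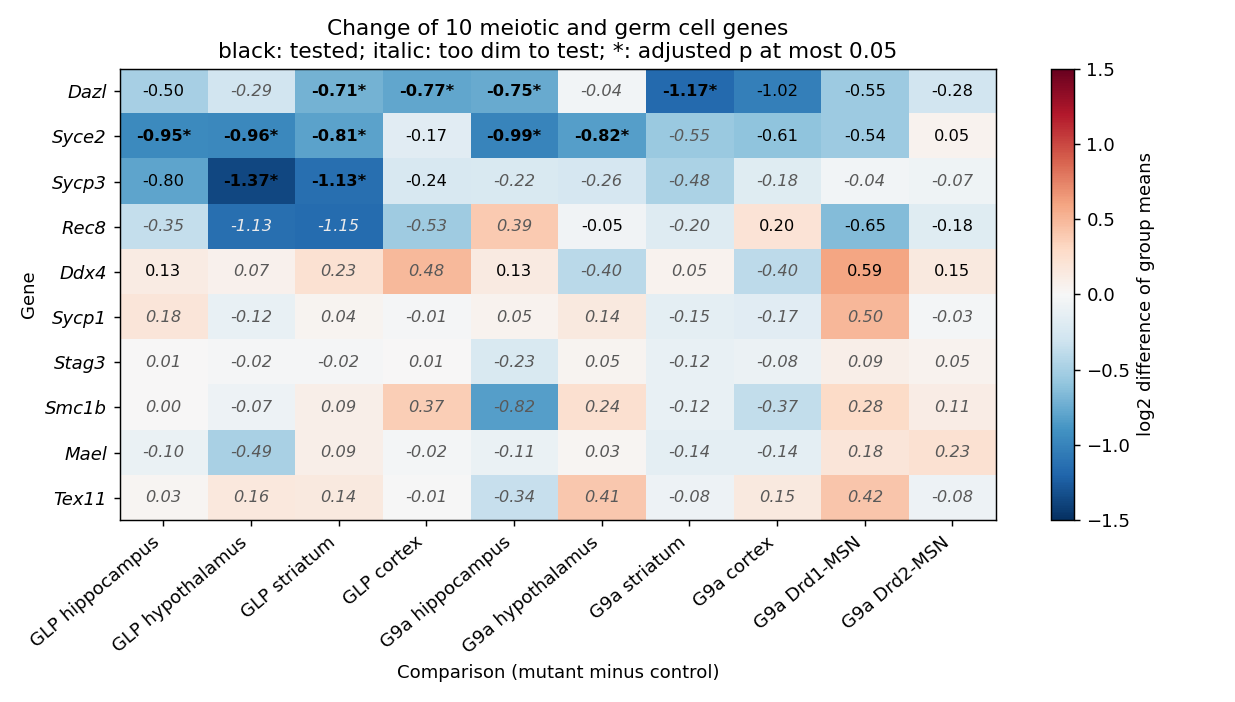
Log2 difference, mutant minus control, of the 10 genes (rows) in the 10 comparisons (columns); upright figures were tested, italic ones were too dim to test, and bold ones with an asterisk had an adjusted p of at most 0.05. All 11 calls are in the rows of Dazl, Syce2 and Sycp3 and are falls, from -0.71 to -1.37.

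Several of these falls left the groups without overlap. The share of all tested genes with every mutant below every control was 3.01% in the GLP hippocampus, 1.04% in the hypothalamus, 3.06% in the striatum and 4.17% in the cortex. For G9a it was 4.53% in the hippocampus, 1.3% in the hypothalamus, 5.27% in the striatum and 27.4% in the cortex.

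Syce2, of the central element, fell in both hippocampi and both hypothalami. In the GLP hippocampus the mutants stood at 0.94, 1.30, 1.14 and 1.29 and the controls at 2.38, 2.50, 2.02 and 1.60. Every mutant lay below every control, and the mean was 51.6% of control (log2 difference -0.95, SE 0.22, adjusted p = 0.00751). The G9a hippocampus gave nearly the same picture, with mutants at 0.36, 0.64, 1.04 and 1.02 and controls at 1.72, 1.74 and 1.80. Here the groups did not overlap and the mutant mean was 50.4% of control (log2 difference -0.99, SE 0.24, adjusted p = 0.012). Each hippocampal call hung on 1 array: it was lost without GLP control 2 (adjusted p = 0.0715) and without G9a mutant 1 (0.0618). In the GLP hippocampus 10 of 15 choroid plexus and ependymal markers rose, with array means of 2.92 to 3.54 in mutants and 0.48 to 2.24 in controls; their part in the fall of Syce2 was not tested. In the G9a hippocampus 1 of these 15 rose, Cldn2, with array means of 0.06 to 0.53 in mutants and -0.24 to -0.06 in controls.

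In the GLP hypothalamus Syce2 stood at 1.19, 0.92, 1.17 and 0.99 in mutants and at 2.04, 2.84, 1.63 and 1.62 in controls. No mutant reached the lowest control, and the mean was 51.3% of control (log2 difference -0.96, SE 0.22, adjusted p = 0.013). Control 2 was the highest array; without it the difference was -0.69 (adjusted p = 0.238), and without mutant 2 the adjusted p was 0.0631. With only these groups in the fit it was 0.212. In the G9a hypothalamus the mutants stood at 0.51, 1.21, 0.30 and 0.28 and the controls at 1.45, 1.31, 1.48 and 1.35. The groups again did not overlap, with a mean at 56.5% of control (log2 difference -0.82, SE 0.22, adjusted p = 0.0332). Mutant 2, the highest mutant, is the array that stood apart, and without it the fall was larger (-1.04, adjusted p = 0.00132). Without that array 2056 genes were called in this comparison rather than 275. The call was lost without any one of mutants 1, 3 and 4 or controls 2, 3 and 4 (adjusted p from 0.0533 to 0.112) and with only these groups in the fit (0.473).

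The striatal fall of Syce2 was less secure. In the GLP striatum mutants stood at 0.50, 0.22, -0.57 and -0.99 and controls at 0.68, 0.32, 0.66 and 0.72, so mutant 1 lay above control 2 and the groups overlapped. The mutants alone would not have met the filter. The mean was 57.2% of control, or at least 1.51-fold lower because the mutant mean lay below the array median (log2 difference -0.81, SE 0.22, adjusted p = 0.0465). This call was lost in 6 of 8 other settings, with an adjusted p of 0.0527 after quantile normalization and 0.0907 with the replicate number as a block, and without any one of 5 arrays: mutants 3 and 4 and controls 1, 3 and 4. The G9a striatum was too dim to test, with mutants at -0.94, -0.47, -0.55 and -0.53 and controls at -0.14, -0.24, 0.09 and 0.02, although every mutant lay below every control. The cortex did not pass in either line, at -0.17 for GLP (adjusted p = 1) and -0.61 for G9a (adjusted p = 1). Averaged over the 4 regions, Syce2 was lower by nearly equal amounts in both lines, at -0.72 for GLP (SE 0.11, adjusted p = 4.15e-06) and -0.74 for G9a (SE 0.13, adjusted p = 3.52e-05).

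Sycp3, of the lateral element, fell in the GLP line. The GLP hypothalamus was the region where it was brightest, with controls at 1.78, 3.01, 2.75 and 1.40 and mutants at 1.09, 0.42, 1.10 and 0.86. All mutants lay below all controls, and the mean was 38.7% of control (log2 difference -1.37, SE 0.28, adjusted p = 0.00207). Among the alternatives only the fit of these groups alone lost the call (adjusted p = 0.161); without control 2 it was 0.0403. In the GLP striatum the mutants stood at -0.60, -1.0, -0.32 and -1.15 and the controls at 0.42, 0.01, 0.50 and 0.51. Every control was above the array median and every mutant below it, at least 1.28-fold lower (log2 difference -1.13, SE 0.27, adjusted p = 0.014). The filter was met there through the controls alone, so Sycp3 was tested only because its controls were brighter. With values below the median set to the median, the difference was -0.36 (adjusted p = 0.459), and the call was also lost without mutant 2 (0.0567) or mutant 4 (0.086).

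Elsewhere in the GLP line Sycp3 was lower without passing. In the hippocampus the mutants stood at -1.11, -0.30, -0.25 and 0.00 and the controls at 0.36, 0.45, 0.65 and 0.06, groups that did not overlap (log2 difference -0.80, SE 0.28, adjusted p = 0.179). In the cortex the difference was -0.24 (SE 0.27, adjusted p = 1). Over the 4 GLP regions the mean difference was -0.88 (SE 0.14, adjusted p = 4.48e-06). In the G9a line Sycp3 was dim: its controls had means of -0.84, -0.24, -0.97 and -0.01 in hippocampus, hypothalamus, striatum and cortex, and the mean difference over regions was -0.28 (SE 0.16, adjusted p = 0.33). The difference between the GLP and G9a effects in the hypothalamus was -1.11 (SE 0.39) and did not pass (adjusted p = 0.399), so the lines are not shown to differ. The GLP effect was not shown to differ across regions either (limma F test, adjusted p = 0.629), a test that 1.08% of genes passed.

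**Figure D2:**
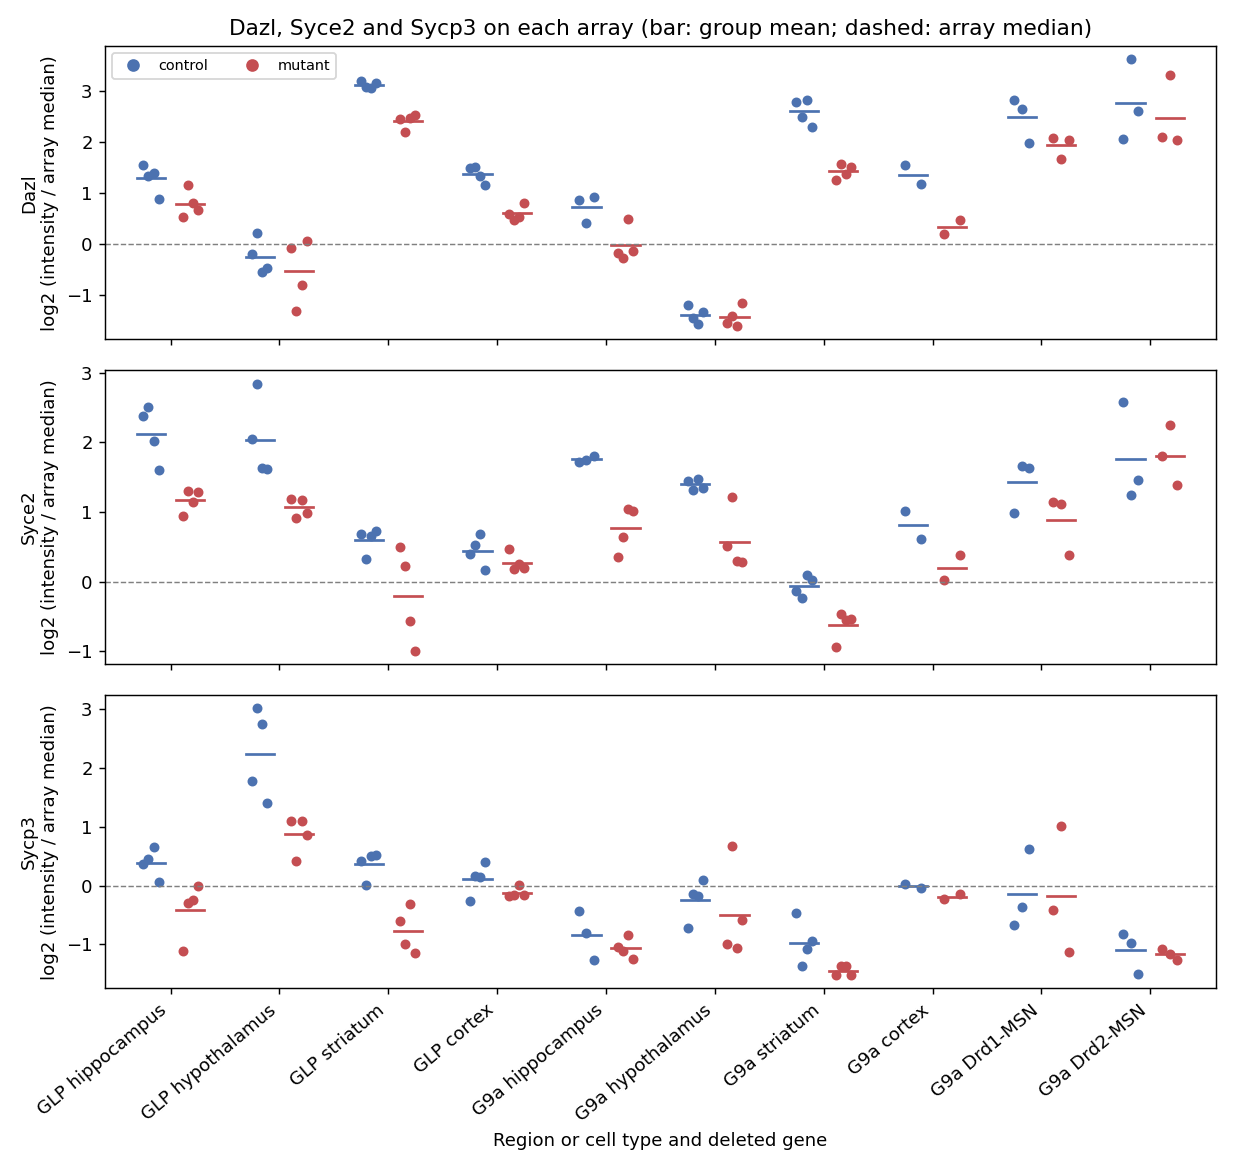
Dazl, Syce2 and Sycp3 on every array, as log2 of intensity over the array median, for each region or cell type and deleted gene; dots are arrays, bars are group means and the dashed line is the array median. In the G9a striatum all Dazl mutants lie at 1.58 or below and all controls at 2.29 or above.

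Dazl, the germ cell RNA-binding protein, fell in striatum of both lines, in GLP cortex and in G9a hippocampus. The G9a striatum showed it most plainly, with mutants at 1.25, 1.58, 1.38 and 1.51 and controls at 2.78, 2.50, 2.83 and 2.29. The gap between the groups was wider than the range of the mutants, and the mean was 44.4% of control (log2 difference -1.17, SE 0.19, adjusted p = 4.32e-05). This call held under all 8 other settings and without each of the 8 arrays in turn (adjusted p at most 0.000789). In these arrays 2 of 7 cortex markers, Neurod6 and Tbr1, and 3 of 8 hippocampus markers, Neurod2, Nts and again Neurod6, rose. Slc17a7, from the neuron markers, rose as well (log2 difference 2.09, adjusted p = 0.047). Cortex marker means were 2.72 to 3.12 in mutants and 1.91, 1.95, 3.30 and 1.73 in controls, so all controls but control 3 lay below every mutant. None of 6 striatal markers was called; their array means were 6.89 to 7.12 in mutants and 7.11 to 7.23 in controls. The part of these markers in the fall of Dazl was not tested.

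In the GLP striatum Dazl was brightest among the tissues, with mutants at 2.45, 2.19, 2.48 and 2.52 and controls at 3.20, 3.07, 3.05 and 3.16. The groups were tight and apart, and the mean was 61% of control (log2 difference -0.71, SE 0.19, adjusted p = 0.0389). Leaving out any 1 of the 8 arrays lost the call (adjusted p from 0.0615 to 0.137), as did the replicate number as a block (0.0773). In the GLP cortex the mutants stood at 0.60, 0.47, 0.54 and 0.81 and the controls at 1.49, 1.52, 1.33 and 1.17. Here too the groups were apart, with a mean at 58.5% of control (log2 difference -0.77, SE 0.19, adjusted p = 0.0174). It was lost without mutant 2 or 3 or control 1 or 2 (adjusted p from 0.0617 to 0.0837). None of the 6 striatal markers was called in the GLP cortex, but their median difference was -0.364, with array means of 4.00 to 4.39 in mutants and 4.33 to 4.76 in controls. In the GLP striatum their median difference was -0.058. The part of striatal tissue in the fall of Dazl in cortex was not tested.

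In the G9a hippocampus Dazl stood at -0.17, -0.27, 0.49 and -0.13 in mutants and at 0.87, 0.41 and 0.92 in controls. Mutant 3 lay above control 2, and the mutant mean lay at the array median, at least 1.66-fold below control (log2 difference -0.75, SE 0.21, adjusted p = 0.0335). The filter was met here through the controls alone. The call was lost with only these groups in the fit (adjusted p = 0.178), with the replicate number as a block (0.0761), and without mutants 1, 2 or 4 or controls 1 or 3 (0.0871 to 0.139). In the G9a cortex the size was similar to that in the G9a striatum, with mutants at 0.21 and 0.48 and controls at 1.55 and 1.18, but 2 arrays a group did not pass (log2 difference -1.02, SE 0.27, adjusted p = 0.0669). It was called after quantile normalization (adjusted p = 0.0393), with values below the median set to it (0.000248) and with only these groups in the fit (0.015). Striatal markers were lower beside it, with a median difference of -0.374 and array means of 3.87 to 4.09 in mutants against 4.17 to 4.51 in controls, none of 6 called; their part was not tested. In the GLP hippocampus the difference was -0.50 (SE 0.19, adjusted p = 0.32), called only with that floor (0.0194).

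Averaged over the 4 regions Dazl differed by -0.57 in the GLP line (SE 0.10, adjusted p = 2.8e-05) and by -0.75 in the G9a line (SE 0.11, adjusted p = 1.75e-06). For these means over regions 3 members were called lower in the GLP line, against 1.98% of all genes, and 2 in the G9a line, against 2.15%. In the hypothalamus Dazl was too dim to test in either line: the GLP controls stood at -0.55 to 0.22 and the G9a controls at -1.56 to -1.18. The untested differences there were -0.29 for GLP and -0.04 for G9a. The G9a effect on Dazl was not shown to differ across regions (limma F test, adjusted p = 0.0708), a test that 1.37% of genes passed. No member was called in any test of the difference between GLP and G9a effects, where 0.157% of genes were called in the hippocampus, 0.00831% in the hypothalamus, 0.00842% in the striatum and 0.0168% in the cortex, and Sycp3 in the hypothalamus alone had an unadjusted p under 0.05. The second Dazl probe set, 1449502_at, was dimmer and also lower in both striata, at -0.75 for GLP (adjusted p = 0.219) and -0.78 for G9a (adjusted p = 0.101), without passing.

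These 3 genes had their own regional patterns in control mice. Dazl was highest in striatum, at 3.12 ± 0.07 (SD, n = 4) in GLP controls and 2.60 ± 0.25 (SD, n = 4) in G9a controls. Cortex and hippocampus followed, at 1.38 ± 0.16 and 1.29 ± 0.29 in GLP controls, which overlap, and hypothalamus was lowest at -0.24 ± 0.35 (adjusted p across regions = 1.12e-19 for GLP and 1.35e-22 for G9a). Syce2 was highest in hippocampus and hypothalamus, at 2.12 ± 0.40 and 2.03 ± 0.57 in GLP controls and 1.75 ± 0.05 (n = 3) and 1.40 ± 0.08 in G9a controls. It was lowest in GLP cortex, at 0.45 ± 0.23, and in G9a striatum, at -0.07 ± 0.15 (adjusted p = 3.87e-11 and 7.02e-09). Sycp3 stood out in the GLP hypothalamus, at 2.24 ± 0.77 against 0.11 ± 0.27 to 0.38 ± 0.25 in the other 3 regions (adjusted p = 1.1e-09). Regional differences were the rule in these arrays: 4 members passed in each line, beside 91.7% of all genes in GLP controls and 85% in G9a controls. The lowest adjusted p of Dazl was in its brightest tissue of the G9a line, striatum, and that of Sycp3 in GLP hypothalamus, but Dazl also fell in GLP cortex and Sycp3 in GLP striatum, at lower levels.

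The group means most like each of the 3 were found by Pearson correlation over the 20 group means, which share libraries and regions, and are given as a description. For Dazl they were Gabra4 (r = 0.953), a GABA receptor subunit, Car11 (0.934) and Atxn1 (0.933). For Sycp3 they were Gnpnat1 (0.89), Mtf2 (0.877) and Rsrc2 (0.877). For Syce2 they were 1110038B12Rik (0.80), Ccdc74a (0.789) and Acot9 (0.788).

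Rec8, the meiotic kleisin that closes the cohesin ring, was called in no comparison but varied with line and, among GLP controls, with replicate number. In the GLP line it was below the median on all arrays but hypothalamus control 4. The hypothalamus controls stood at -2.01, -0.28, -2.27 and 0.79 against mutants at -1.92, -2.37, -1.65 and -2.35. Striatum controls stood at -2.62, -0.72, -1.99 and -0.24 and cortex controls at -1.42, -0.30, -1.47 and -0.11. In each of these 3 regions controls 2 and 4 were above controls 1 and 3 and above all mutants, whereas controls 1 and 3 lay within or close to the range of the mutants. The labels do not say if controls of the same number are the same mouse in different regions. The hypothalamus difference was -1.13 and became -0.55 without control 4. Rec8 was too dim to be tested in any single GLP region or in their mean, and it was called there (-0.79, adjusted p = 0.00637) only where the filter on dim genes was dropped.

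G9a arrays held more Rec8. In the hypothalamus the mutants stood at 1.51, 1.97, 1.49 and 1.18 and the controls at 1.58, 1.39, 1.69 and 1.70, overlapping throughout (log2 difference -0.05, SE 0.39, adjusted p = 0.971). All 8 lay above all 8 arrays of the GLP hypothalamus, whose highest was 0.79. Among G9a controls the level differed across regions (adjusted p = 4.47e-07), from -1.23 ± 0.28 (SD, n = 3) in hippocampus to 1.59 ± 0.15 (SD, n = 4) in hypothalamus. The G9a mean effect over regions was 0.09 (SE 0.22, adjusted p = 0.889).

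**Figure D3:**
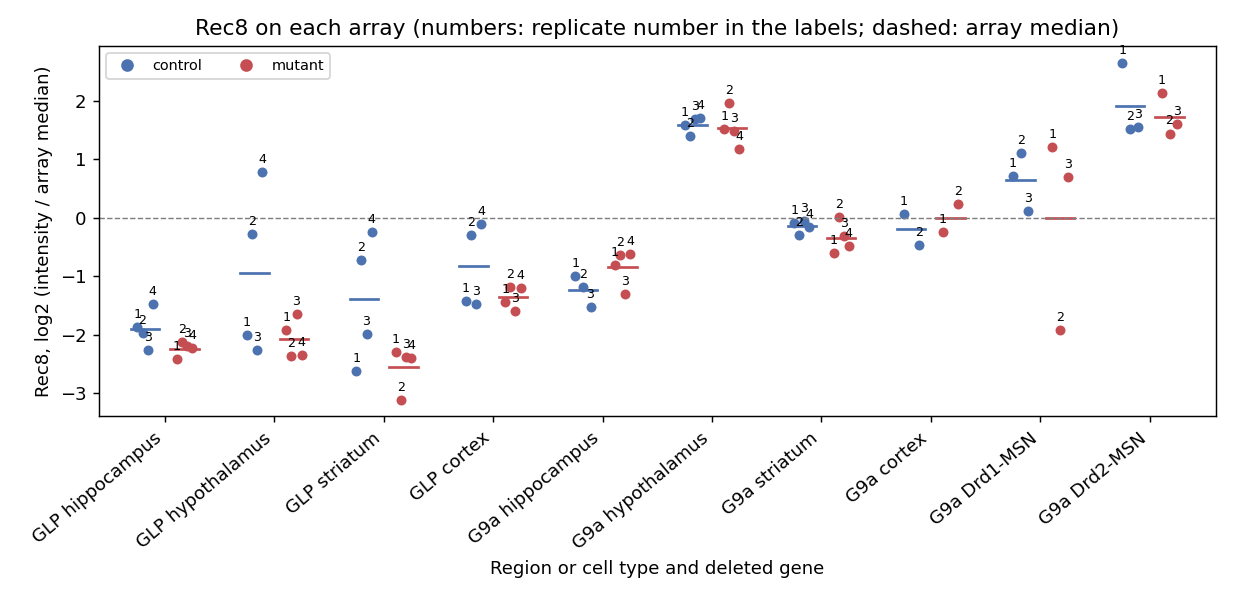
Rec8 on every array, as log2 of intensity over the array median; dots are arrays marked with their replicate number, bars are group means and the dashed line is the array median. In GLP hypothalamus, striatum and cortex, controls 2 and 4 lie above controls 1 and 3 and above all mutants.

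Ddx4, the germ cell RNA helicase, stayed near the array median in tissue and was called in no comparison. It was tested in 4 of the 10 comparisons, and in tissue only in the hippocampus of each line. Its untested differences elsewhere in tissue ran from -0.4 in the G9a hypothalamus and cortex to 0.48 in the GLP cortex. Its group means in tissue ran from -0.74 in G9a hypothalamus mutants to 0.50 in GLP hippocampus mutants, and its mean difference over regions was 0.23 for GLP (SE 0.14, adjusted p = 0.43) and -0.15 for G9a (SE 0.16, adjusted p = 0.659). It was brighter in the polyribosome pools, at 1.32 ± 0.19 (SD, n = 3) in Drd1 controls and 1.49 ± 0.34 (SD, n = 3) in Drd2 controls, against -0.71 ± 0.32 (SD, n = 4) in G9a striatum controls. The pools were a different kind of RNA from other mice and were not tested against tissue. In the Drd1 pools every mutant lay above every control, as did 2.9% of tested genes (log2 difference 0.59, SE 0.29), which did not pass (adjusted p = 0.943).

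The 3 members that fell in tissue, and Rec8, were also read in the neuron pools. Rec8 was above the median on all control pools, at 0.64 ± 0.50 in Drd1 and 1.90 ± 0.65 in Drd2 (SD, n = 3). It differed by -0.65 in the Drd1 pools and by -0.18 in the Drd2 pools, and neither passed. The Rec8 difference in the Drd1 pools became 0.313 without Drd1 mutant 2. Dazl was bright in both, at 2.83, 2.64 and 1.98 in Drd1 controls and 2.06, 3.62 and 2.61 in Drd2 controls. Its mutant pools stood at 2.08, 1.67 and 2.05 for Drd1 and 2.09, 3.31 and 2.04 for Drd2, overlapping the controls in both. The differences were -0.55 (SE 0.45, adjusted p = 0.943) and -0.28 (SE 0.45, adjusted p = 1). Without Drd2 control 2 the second became 0.145, and without Drd2 mutant 2 it became -0.70. The second Dazl probe set went the other way in the Drd1 pools, at 0.20 (SE 0.45, adjusted p = 0.966), and stood at -0.82 in the Drd2 pools (SE 0.45, adjusted p = 1). Syce2 differed by -0.54 in the Drd1 pools (SE 0.39, adjusted p = 0.943) and by 0.05 in the Drd2 pools (SE 0.39, adjusted p = 1). Sycp3 was too dim to test, at -0.67, -0.37 and 0.62 in Drd1 controls and -0.42, 1.01 and -1.13 in Drd1 mutants. The standard errors of Syce2 and Dazl were 0.39 and 0.45, against 0.22 and 0.19 for the same genes in most tissue comparisons.

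The remaining 5 members, Sycp1, Stag3, Smc1b, Mael and Tex11, were below the array median on all 71 arrays. This was true of 3963 of the 18193 genes, 21.8%. They were tested in no comparison, and no array, mutant or control, brought any of them to the median. Sycp1, of the transverse filament, ran from -3.45 to -0.72 with a median of -3.04. Its cohesin partners in the axis were as dim on their own scales, Stag3 from -3.84 to -1.54 and Smc1b from -3.51 to -0.33. Mael ran from -2.98 to -1.08 and Tex11 from -2.95 to -0.80. The highest values of Sycp1 and Tex11 were both on Drd1 mutant 2, the array that stood apart, where Mael was also high at -1.19. The highest Smc1b was on G9a hippocampus control 2, at -0.33 beside -3.37 and -3.22 in the other controls. It made the whole of the Smc1b difference there, which was -0.82 with it and 0.165 without it.

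**Figure D4:**
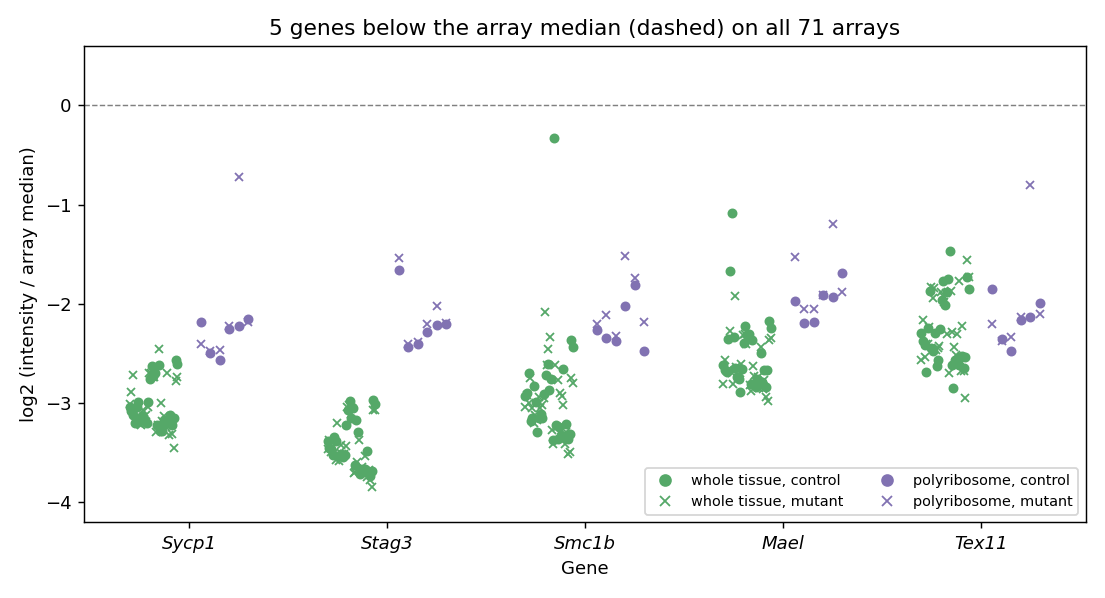
The 5 members below the array median on all 71 arrays, as log2 of intensity over the array median (dashed); each point is an array, green for whole tissue and purple for polyribosome pools, dots for controls and crosses for mutants. No point reaches the line, and the highest is Smc1b at -0.33 on a G9a hippocampus control.

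No neighbouring gene passed the test where a member fell. The nearest measured genes on either side, from the GRCm38.p6 RefSeq table, were Gnptab and Chpt1 for Sycp3, Farsa and Gcdh for Syce2, and Plcl2 and AY702103 for Dazl. None was called in any of the 10 comparisons. Chpt1 shares 3724 bases with Sycp3 and Gcdh 1060 bases with Syce2 as annotated. Where Syce2 fell, Gcdh differed by -0.08 to 0.20, and where Sycp3 fell, Chpt1 differed by -0.06 in the GLP hypothalamus (adjusted p = 0.91) and -0.30 in the GLP striatum (adjusted p = 0.369). Plcl2 was on the lower side in all 4 comparisons where Dazl fell, at -0.04, -0.16, -0.16 and -0.19 (SE 0.09 to 0.10, adjusted p from 0.386 to 0.945). AY702103 was too dim to test.

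Other genes of the same processes were taken from lists drawn up with earlier results of these data known. Of 18 further synaptonemal complex and chromosome axis genes on the array, 11 were below the median on all arrays, 5 were tested in any comparison and 1 changed. That one was 4930447C04Rik, listed by RefSeq with the synonym Six6os1, which encodes a central element protein like Syce2. In the GLP striatum it stood at -0.69, -0.40, -1.0 and -0.69 in mutants and at 0.98, 0.38, 0.95 and 0.40 in controls, all on opposite sides of the median (log2 difference -1.37, SE 0.31, adjusted p = 0.00557). There and in the GLP hippocampus 4930447C04Rik met the filter through the controls alone. This gene also fell in the GLP hippocampus (-1.08, adjusted p = 0.0481), the GLP hypothalamus (-1.15, adjusted p = 0.0485) and the G9a hypothalamus (-1.29, adjusted p = 0.0132). In the G9a striatum, too dim in 1 control to be tested, mutants stood at -1.59, -0.33, -1.60 and -1.57 and controls at 0.67, 0.67, 0.73 and -0.01.

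Of 19 meiotic recombination genes on the array, 10 were below the median on all arrays, and 0 of the 7 that were tested in any comparison changed. Of 16 piRNA pathway genes 8 were below the median on all arrays and 0 of 4 tested changed. Of 27 germ cell regulators and gamete genes 20 were below it on all arrays, and of 6 tested 2 rose and 0 fell. Of all 13233 genes tested in any comparison, 313 were lower and 805 higher in at least 1, against which 4 to 7 tested genes a list are few. The one that rose most often was Dppa5a, a marker of pluripotent and early germ cells, in 5 comparisons. In the G9a hypothalamus its mutants stood at 1.63, 2.12, 1.61 and 2.17 and its controls at 1.16, 1.17, 0.89 and 0.86 (log2 difference 0.86, SE 0.17, adjusted p = 0.00126). It rose as well in the G9a cortex (1.12, adjusted p = 0.00421) and hippocampus (0.72, adjusted p = 0.0144) and in the GLP hypothalamus (0.75, adjusted p = 0.00862) and cortex (0.74, adjusted p = 0.0056). In the G9a hippocampus and the GLP cortex Dppa5a met the filter through the mutants alone, where it was high. Kit, a receptor of germ cell precursors that neurons also express, rose in the GLP hypothalamus (0.83, adjusted p = 0.000558).

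**Figure D5:**
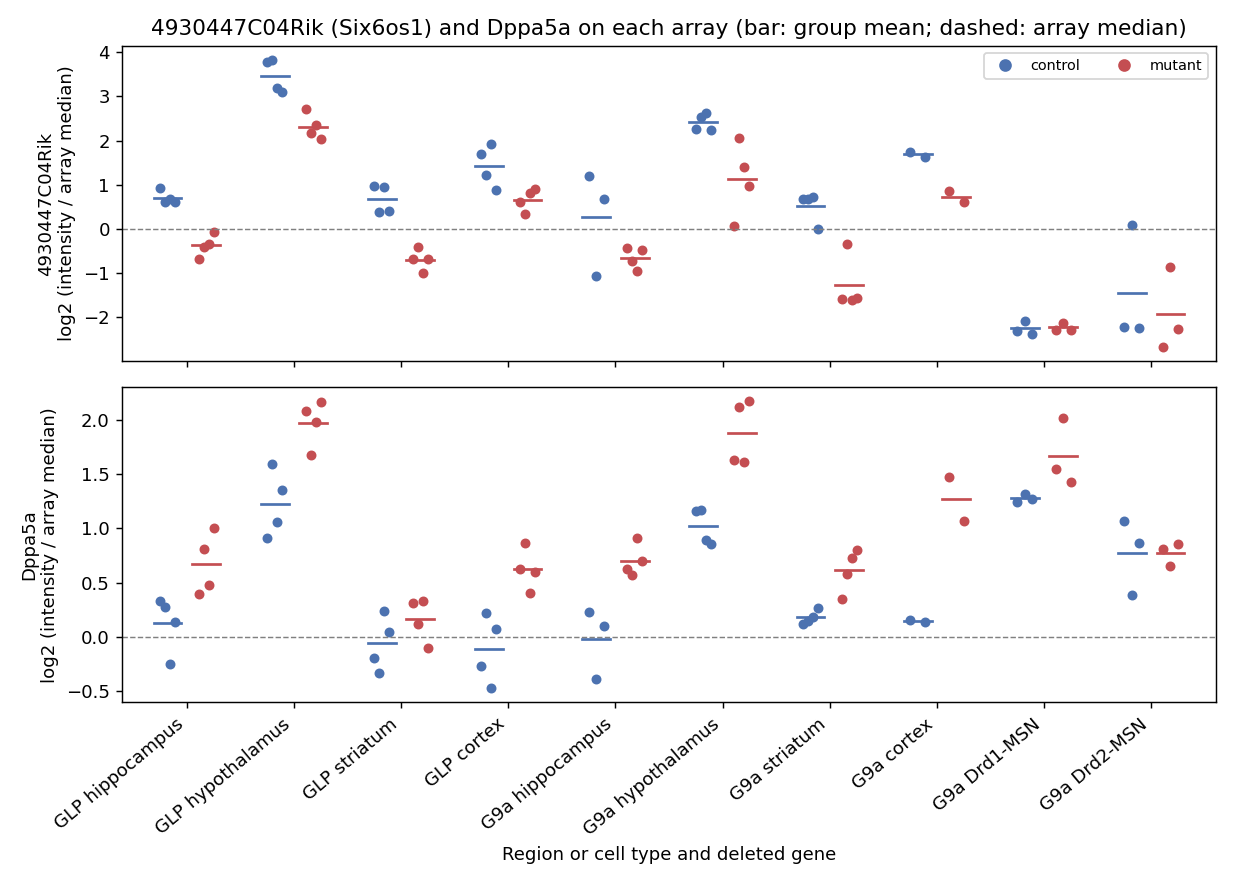
4930447C04Rik (Six6os1) and Dppa5a on every array, as log2 of intensity over the array median; dots are arrays, bars are group means and the dashed line is the array median. Mutants lie below controls for the first in the 4 comparisons called and above them for the second in the 5 comparisons called.

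Mitotic cohesin, the form that dividing and resting cells use, was bright: of 11 genes 9 were above the median on all arrays and 1 changed, the regulator Pds5b, with a difference of -0.33 in the GLP hippocampus (adjusted p = 0.032). Among 26 genes known to repress germline genes, Ehmt1 and Ehmt2 fell as the deleted genes and Dnmt1, the maintenance DNA methyltransferase, rose in the G9a hippocampus (0.45, adjusted p = 0.0283). No other one was called. Genes below the median on all arrays made up 61.1% of the axis list, 52.6% of recombination, 50% of piRNA and 74.1% of the gamete list. The share was 21.8% of all genes and 9.09% of mitotic cohesin.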

How the data were processed

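Gene expression was measured on 71 Affymetrix arrays of 45101 probe sets. The authors deposited linear intensities made with GCRMA, per the submitters' processing notes, which name no version. GCRMA as a method models background and normalizes across arrays, which can compress dim values. RNA went through a pair of amplification cycles before labelling, per the labels' protocols. These intensities were already relative to the array median, so only their log2 was taken. Then 64 control probe sets were left out, and each of 18193 genes was represented by its brightest probe set among the 34945 with 1 gene symbol.

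Tissue arrays (59) and polyribosome arrays (12) were fitted separately with limma 3.58.1 in R 4.3.3, all groups sharing the estimate of spread, with an intensity trend and Benjamini-Hochberg adjustment at 0.05. The steps were tested on simulated data. Where a group mean lay below the array median, a fold is given as "at least", against the median. Other settings were quantile normalization, a floor at the array median, no filter, a filter at log2 above 1, the compared groups alone, the replicate number as a block, no trend, the mean of a gene's probe sets, and leaving out each array.

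Named genes were the 10 members, the nearest measured neighbours of each called member, called genes of the other lists (up to 6 a list), Ehmt1 and Ehmt2, and the 3 genes most like each called member. Members and lists were chosen with earlier results of these data known. Same-numbered arrays deviated together in the Drd2 pools (correlations 0.165 to 0.462 over 3 pairs), so the numbers may pair them there. The reported fit left these pools unpaired. With the block no member call changed in them, and 1 gene of all was called rather than 2. The title of 1 G9a hypothalamus control gives number 4 and its source name 5; the title was followed. A double-deletion genotype named in the protocols was not analysed here. Columns of other samples numbered 0.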

Additional observations from a re-analysis of the deposited data

Results flagged for a closer look

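In 130 sets of 4 arrays of a member in a group, 8 had an array whose gap to the nearest other exceeded 0.829 of the range of the set; chance gives about 1 in 20. For Sycp3 it was GLP cortex mutant 3, at 0.01 against -0.17 to -0.16 in the others (gap 0.92 of the range). For Syce2 it was GLP striatum control 2, at 0.32 against 0.66 to 0.72 (0.835), and G9a striatum mutant 1, at -0.94 against -0.55 to -0.47 (0.834). Control 2 is the control that overlapped a mutant in the GLP striatum. For Rec8 it was GLP striatum mutant 2, at -3.11 against -2.40 to -2.29 (0.874). The other 4 were in genes below the median on all arrays: Stag3 and Smc1b on GLP striatum control 4, at -3.22 against -3.54 to -3.51 (0.906) and at -2.91 against -3.15 to -3.11 (0.839). Tex11 stood at -1.84 on GLP striatum mutant 1 against -2.46 to -2.42 (0.937), and at -2.65 on G9a striatum control 3 against -2.53 to -2.52 (0.936).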

How the results depend on the processing

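None of the 16 called member differences, means over regions included, changed sign. Of 22 tested differences that were not called 9 did, and of 82 untested ones 34 did. With the array median as a floor the Ddx4 difference in the G9a hippocampus was -0.115 and the Sycp3 mean in the G9a line 0.033; after quantile normalization Syce2 in the Drd2 pools was -0.003. Leaving out 1 array gave -0.415 to 0.47 for Ddx4 in the G9a hippocampus, and for Rec8 -0.198 to 0.066 in the G9a hypothalamus, -0.067 to 0.47 in the G9a cortex, -1.25 to 0.313 in the Drd1 pools and -0.39 to 0.197 in the Drd2 pools. In the Drd2 pools it gave -0.206 to 0.46 for Syce2, -0.70 to 0.145 for Dazl and -0.061 to 0.39 for Ddx4. The 11 member calls became 7 to 11 under the other settings, all of them falls. With the array median as a floor, 2 members were called in the GLP hippocampus, 1 in the GLP striatum, 1 in the G9a cortex, 1 for the GLP against G9a difference in hypothalamus, 2 for the GLP effect and 1 for the G9a effect across regions, and 1 between Drd1 and Drd2 control pools. Without the filter on dim genes 9 members differed across regions in GLP controls and 8 in G9a controls, rather than 4. With the filter at log2 above 1, 1 member was called in the GLP striatum and 1 in the G9a hippocampus. With the compared groups alone, 0 were called in the GLP hypothalamus, 1 in the G9a hippocampus, 0 in the G9a hypothalamus, 1 in the G9a cortex and 1 between the control pools. Quantile normalization called 1 in the G9a cortex. With the mean of a gene's probe sets 1 was called in the G9a hippocampus and 1 for the G9a effect across regions.

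With the replicate block 1 member was called in the GLP striatum rather than 3 and 1 in the G9a hippocampus rather than 2, and no other mutant comparison changed its member count. The reported fits took the numbers as pairs in no comparison. Besides the Drd2 pools, correlations of same-numbered arrays were all above 0 in the GLP hippocampus (0.024 to 0.248), GLP cortex (0.052 to 0.215) and G9a cortex (0.029). They were also above 0 in the G9a hypothalamus (0.002 to 0.596). The remaining comparisons each had a negative one, the lowest being -0.296, in the Drd1 pools. In the G9a hypothalamus and striatum same-numbered mutants and controls also matched in sex by Xist, and 3 of the 4 hypothalamus pairs correlated at 0.596, 0.399 and 0.352 (the other at 0.002). No block could be fitted for the 3 comparisons among controls.

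Leaving out 1 array gave 0 to 1 member calls in the GLP hippocampus, 1 to 2 in the GLP hypothalamus, 0 to 3 in the GLP striatum, 0 to 1 in the GLP cortex, 0 to 2 in the G9a hippocampus, 0 to 1 in the G9a hypothalamus and 0 to 1 for the G9a effect across regions. Over all genes, the compared groups alone gave 39 calls rather than 117 in the GLP hypothalamus, 112 rather than 193 in the GLP striatum, 365 rather than 179 in the GLP cortex, 186 rather than 319 in the G9a hippocampus, 20 rather than 275 in the G9a hypothalamus and 312 rather than 85 in the G9a cortex. Quantile normalization gave 488 in the G9a hypothalamus. Leaving out 1 array gave 141 to 2056 calls there.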
